A study of Homo sapiens with 2 samples.

Results

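The genes described here encode TOP3B, its partner TDRD3, the fragile X protein family (FMR1, FXR1 and FXR2) and 4 proteins first known as partners of that family (CYFIP1, CYFIP2, NUFIP1 and NUFIP2). They were taken from the deposited expression table by gene symbol. All 9 were found among its 13075 rows, 1 row each, and all 9 passed a floor of 5 FPKM in at least 1 library, as did 11990 rows in all. FPKM is the number of fragments per kilobase of transcript and scaled to the total of the library, so levels of different genes can be set side by side.

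RNA was sequenced from HEK293, a human embryonic kidney line at passage 15, transfected with TOP3B that carried a FLAG tag and the labelled change R338W. One library (the input) was made from lysate without an antibody, and the other (the RIP, RNA immunoprecipitation) from RNA recovered with the monoclonal anti-FLAG M2 antibody under native conditions. Both therefore come from cells that carry the transfected protein, and a RIP from cells without the tag was not analysed here. With 1 library per group there is no replicate error and no test, and every difference below is a difference between 2 libraries.

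TOP3B is a topoisomerase that can pass strands of RNA as well as DNA. It cuts a strand through an active-site tyrosine, stays joined to the cut end for a moment, and reseals it. TDRD3 binds TOP3B and, through its Tudor domain, methylated arginines, and it links the enzyme to FMRP, the product of FMR1. FMRP and its paralogs FXR1 and FXR2 bind mRNAs and are best known as regulators of translation, in neurons above all. CYFIP1 and CYFIP2 connect FMRP to the cap-binding machinery and to the WAVE complex that drives actin branching. NUFIP1 is a nuclear factor needed to assemble box C/D snoRNPs, and NUFIP2 is a cytoplasmic protein of stress granules. All values here concern the mRNAs of these genes, not the proteins.

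The labelled change lies beside the active site, which is shown here because it defines the protein that was immunoprecipitated. In the reference coding sequence of TOP3B (GENCODE release 29, GRCh38 chromosome 22, 21964215 to 21964277, minus strand, within exon 10 of the 18 exons of the principal transcript) the stretch from codon 328 to codon 348 reads 5′ to 3′ as follows, with codon 336, that of the active-site tyrosine, and the codon of the changed residue in capitals.
TOP3B codons 328 to 348: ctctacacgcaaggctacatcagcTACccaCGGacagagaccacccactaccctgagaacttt
The codon of the changed residue lies at positions 21964245 to 21964247. The R338W form is known to stay joined to nucleic acid for longer than the unchanged enzyme, and the series was set up to find RNAs in such complexes. The deposited table has 1 value per gene, so it cannot show which codon the sequenced TOP3B fragments carried.

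The second set of sequences bears on whether paralogs could be told apart in the counting. The longest runs shared by the coding parts of each pair of principal transcripts are in capitals, with 8 flanking bases of the gene named first.
FMR1 and FXR1: ttgtaaagGATGTTCATGAAGAttcaataa
FMR1 and FXR2: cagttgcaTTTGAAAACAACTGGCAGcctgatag
FXR1 and FXR2: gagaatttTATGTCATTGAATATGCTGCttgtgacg
CYFIP1 and CYFIP2: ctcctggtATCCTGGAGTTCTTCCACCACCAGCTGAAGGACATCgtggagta
These runs were 14, 18, 20 and 36 bases long, and identity over the aligned coding bases was 65.8%, 63.0%, 66.5% and 79.0%. No run reached 50 bases, and no 50-base word of the principal transcripts of TDRD3, FMR1, FXR2, CYFIP1 or CYFIP2 occurred in any annotated transcript of another gene. For TOP3B 12.6% of such words also occurred in the pseudogene TOP3BP1, and for NUFIP1 11.2% occurred in the pseudogene NUFIP1P. FXR1 shared 0.369% of its words with AC079601.2, and NUFIP2 0.12% with RNASEH2A. The values of TOP3B and NUFIP1 could thus hold, or lack, some fragments of such copies.

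Depth was estimated from the steps between low FPKM values, at 24700000 fragments for the RIP and 15200000 for the input. All intervals given for single genes are 95% intervals of counting error alone, from these estimated fragment numbers. Without molecular identifiers they understate even that error, and they hold nothing about how another immunoprecipitation would turn out. They also take each gene at the length of its principal transcript, so they are too narrow where shorter transcripts were present. Over all rows past the floor the median log2 ratio, log2((RIP + 1)/(input + 1)), was 0.13, with quartiles of -0.25 and 0.50. Of 8 genes known from HEK293 cells, such as the filament gene VIM and the neurofilament gene NEFL, 7 were in the table, and PAX2 was not. Of 5 kidney tubule markers only LRP2 was listed, at 5.49 FPKM in the RIP against 1.96 in the input, and none of the 3 liver and 4 blood markers was listed.

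TOP3B, the bait's own mRNA, stood at 30666 FPKM in the RIP against 15062 FPKM in the input. It was 2.04 times as high in the RIP, a log2 ratio of 1.03 with a counting interval of 1.02 to 1.03. It ranked 5 among all rows of the RIP and 16 in the input, and stood at 8.02 and 4.23 times the next protein-coding gene, RPL19 in the RIP and MT-CO3 in the input. The gene spans 21957025 to 21982816 on chromosome 22. The values do not separate the transfected from the chromosomal copy, and in bulk RNA a larger share of transfected cells and more of this mRNA per cell cannot be told apart.

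No other row was near TOP3B in both level and ratio. Of all rows, the small nuclear RNA copy RNU1-27P lay nearest over the 2 libraries, at a distance of 0.95 on the log2 scale, and stood at 16369 FPKM in the RIP against 18581 in the input. The 5 rows with a higher mean level were noncoding RNAs with ratios of at most -0.57, all lower in the RIP. Among the 500 rows nearest in mean level, which reach down to 151 FPKM, 94.6% had a lower ratio than TOP3B.

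TOP3B alone took an estimated 9.02% of all fragments in the RIP against 4.43% in the input if the principal transcript of 3107 bases is used, or 7.43% and 3.65% if only its coding part of 2589 bases was present. Taking it out of both totals would raise every other gene's log2 ratio by 0.07 with the first pair of shares and by 0.06 with the second. The rows around it on the chromosome were far lower. PPM1F, a phosphatase gene 4.2 kb away, stood at 10.4 FPKM in the RIP against 8.77 in the input, and LL22NC03-86G7.1, an antisense gene that overlaps TOP3B, at 3.66 and 2.68 FPKM. On the other side the nearest row was the pseudogene LL22NC03-80A10.6, 320.4 kb away, at 33.9 and 16.5 FPKM. Its log2 ratio of 0.99 was close to that of TOP3B, though its level was far lower. The high level was thus that of the TOP3B row and not of its surroundings.

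TDRD3, the scaffold that holds TOP3B in its complex, was by contrast a moderately expressed mRNA whose difference between the libraries lay within counting error. It stood at 15.5 FPKM in the RIP against 14.4 in the input, a log2 ratio of 0.10, and without the pseudocount the counting interval ran from -0.05 to 0.26. Among 500 rows of similar level 47.6% had a lower ratio. The TOP3B mRNA was thus 1982 times as high as that of its partner in the RIP against 1047 times in the input. TDRD3 lies on chromosome 13 (60396457 to 60573878, plus strand), and its principal transcript has 2579 bases in 14 exons.

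**Figure D1:**
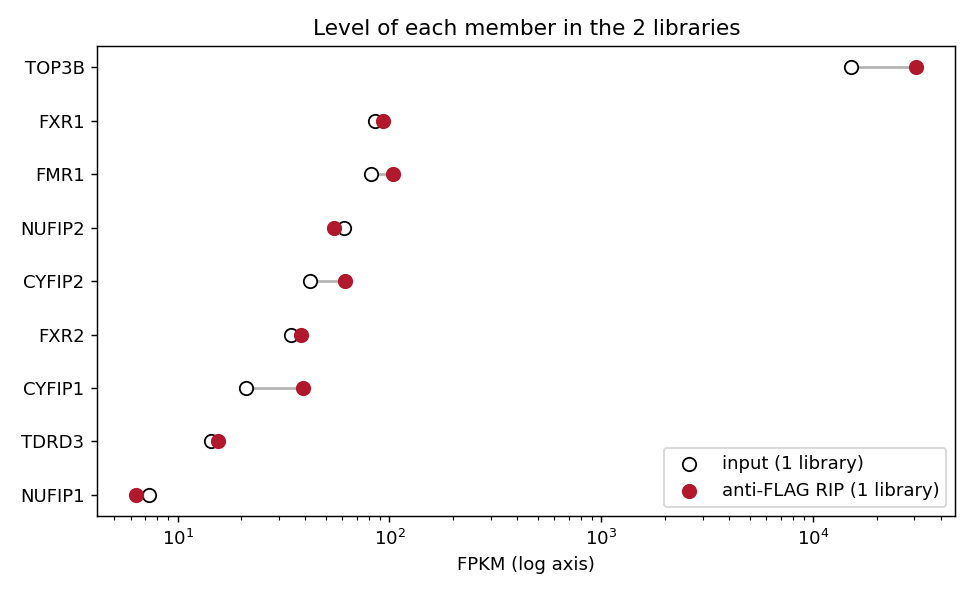
FPKM (log axis) of each gene in the input (open) and the RIP (filled), 1 library each. TOP3B lies at 15062 FPKM or more in both libraries and the other 8 genes between 6.38 and 104 FPKM, with the widest gaps for TOP3B and CYFIP1.

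In the FMRP family all 3 mRNAs were slightly higher in the RIP, except FXR1 after rescaling to the coding genes. Of all rows 58.7% were higher in the RIP as well. A 2-fold difference was reached by 0 of 3, against 4.9% of all rows higher and 2.5% lower. FMR1 stood at 104 FPKM in the RIP against 82.3 in the input, with a log2 ratio of 0.33 (counting interval 0.29 to 0.39 without the pseudocount). FXR1 stood at 93.1 and 85.0 FPKM, a log2 ratio of 0.13, and FXR2 at 38.2 and 34.2 FPKM, a log2 ratio of 0.16. The last pair lay at the median of all rows, and FMR1 0.21 above it.

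Within the family FMR1 differed from its paralogs by more than counting error, whereas the difference between the paralogs lay within it. The log2 ratio of FMR1 exceeded that of FXR1 by 0.21 (0.15 to 0.26) and that of FXR2 by 0.18 (0.07 to 0.28). Between FXR1 and FXR2 the difference was -0.03, with a counting interval of -0.13 to 0.07. These intervals take FXR1 at 8711 bases, whereas the median length of its 22 annotated transcripts is 781.5 bases. FMR1 was the higher of the top pair in the RIP and FXR1 in the input, and FXR2 stood at less than either in both libraries.

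Among 500 rows of similar level, 57.8% had a lower ratio than FMR1, 45.6% a lower ratio than FXR1 and 49.2% a lower ratio than FXR2. The family thus lay in the middle of genes expressed at its level. FMR1 (chromosome X, 147911951 to 147951125, plus strand), FXR1 (chromosome 3, 180868141 to 180982753, plus strand) and FXR2 (chromosome 17, 7591230 to 7614871, minus strand) each have 17 exons in the principal transcript, but very different 3′ untranslated parts of 2281, 6461 and 600 bases. MPDU1, on the opposite strand, overlaps the end of FXR2 and stood at 32.4 FPKM in the RIP against 43.0 in the input.

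The CYFIP pair had the highest ratios after TOP3B. CYFIP1 stood at 39.2 FPKM in the RIP against 21.0 in the input, 1.87 times as high, and CYFIP2 at 61.5 and 42.0 FPKM, 1.46 times as high. On the log2 scale with the pseudocount the ratios were 0.87 and 0.54, and without it the counting intervals were 0.83 to 0.97 and 0.48 to 0.62. On the deposited scale both were thus higher in the RIP beyond counting error, and neither reached 2-fold.

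CYFIP1 and CYFIP2 have coding parts of the same length, 3762 bases, and 31 exons each, yet their ratios differed by 0.35 (0.26 to 0.45). CYFIP2 was the more abundant mRNA in both libraries, so that CYFIP1 stood at 0.64 of its level in the RIP against 0.50 in the input. Among 500 rows of similar level 92.6% had a lower ratio than CYFIP1, against 71.6% for CYFIP2. The closest rows in level were TIMELESS, a replication fork gene, for CYFIP1 (39.5 and 21.3 FPKM) and GIGYF2, a translational repressor gene, for CYFIP2 (61.7 and 41.6 FPKM).

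CYFIP1 (chromosome 15, 22867052 to 22981063, minus strand) lies in a cluster with NIPA1, NIPA2 and TUBGCP5. These neighbours went both ways. TUBGCP5, a gamma-tubulin complex gene 2.1 kb away, stood at 32.5 FPKM in the RIP against 13.2 in the input, a log2 ratio of 1.24. The magnesium transporter genes NIPA1 (9.01 and 12.1 FPKM) and NIPA2 (14.4 and 20.4 FPKM) had ratios of -0.39 and -0.47. CYFIP2 lies on chromosome 5 (157266079 to 157395595, plus strand), between MED7 at -0.66 and THG1L at 0.02.

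The NUFIP genes were the only members with ratios below 0 on the deposited scale, whereas after rescaling to the coding genes TDRD3 (-0.03) and FXR1 (-0.0090) lay below 0 too. NUFIP1 had the lowest level of the 9, at 6.38 FPKM in the RIP against 7.31 in the input, and NUFIP2 stood at 54.7 and 61.1 FPKM. Their log2 ratios were -0.17 and -0.16. Counting intervals without the pseudocount were -0.39 to -0.0016 for NUFIP1, which rested on an estimated 524 and 370 fragments, and -0.20 to -0.12 for NUFIP2. The ratios of the pair differed by -0.04, with an interval of -0.23 to 0.16. Of 500 rows of similar level 32.6% lay below NUFIP1 and 25.4% below NUFIP2.

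Although they share a name, NUFIP1 (chromosome 13, 44939249 to 44989483, minus strand) and NUFIP2 (chromosome 17, 29255836 to 29294118, minus strand) have mRNAs of different build. NUFIP1 has 1 annotated transcript of 3492 bases in 10 exons. NUFIP2 has 10850 bases in only 4 exons, of which 8703 are 3′ untranslated. The genes beside them went both ways for NUFIP1 and had higher ratios for NUFIP2. GPALPP1, which starts 45 bases from NUFIP1, stood at 38.4 FPKM in the RIP against 24.2 in the input, and TSC22D1, on the other side, at 16.5 and 21.9 FPKM. TAOK1, a kinase gene near NUFIP2, stood at 97.9 and 49.1 FPKM, and MYO18A, a myosin gene on its other side, at 40.4 and 18.2 FPKM.

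Over the nearest rows on either side of all 9 genes, 18 in number, the median log2 ratio was 0.04. Of these rows 10 lay above 0, beside 58.7% of all rows, and 8 below. At least 2-fold higher were 2 (4.9% of all rows) and at least 2-fold lower 0 (2.5% of all rows). The lowest was DNAJC19, a mitochondrial import gene that lies 955 bases from FXR1, at 14.1 FPKM in the RIP against 26.8 in the input.

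In the order of levels TOP3B came first and NUFIP1 last in both libraries. In the RIP it was followed by FMR1, FXR1, CYFIP2, NUFIP2, CYFIP1, FXR2 and TDRD3, and in the input by FXR1, FMR1, NUFIP2, CYFIP2, FXR2, CYFIP1 and TDRD3. The order of 3 neighbouring pairs was thus exchanged. For CYFIP1 and FXR2 in the RIP (39.2 and 38.2 FPKM) the counting intervals of 38.2 to 40.1 and 36.8 to 39.7 overlapped. For FXR1 and FMR1 in the input (85.0 and 82.3 FPKM) they ran from 83.4 to 86.6 and from 80.0 to 84.5, and overlapped too. Other neighbours in the order had intervals apart.

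Set against the whole table, the 9 genes as a group had ratios like those of other rows. TOP3B was the 1 member at least 2-fold higher in the RIP, against 4.9% of all rows, and 0 members were at least 2-fold lower, against 2.5% of all rows. At a 1.5-fold limit TOP3B and CYFIP1 were higher, against 19.9% of rows, and 0 members were lower, against 10.2% of rows. The median log2 ratio of the 9 was 0.16, and of the 8 without TOP3B 0.14, beside 0.13 over all rows and 0.15 over protein-coding rows. Of the 9 members 6 lay above the median row. After centring both libraries on their median gene, the log2 ratio of TOP3B was 0.91 and no member remained past 2-fold.

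**Figure D2:**
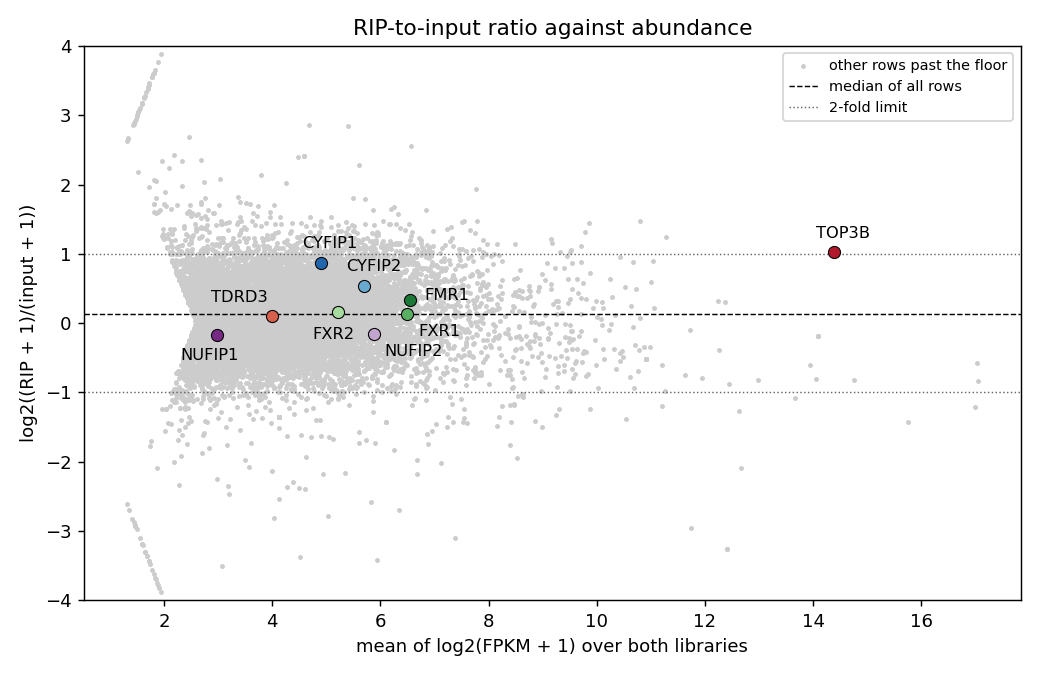
Log2 ratio of RIP to input (pseudocount 1) against mean log2(FPKM + 1) for rows past the floor, in grey, with the 9 genes marked. The dashed line is the median of all rows (0.13) and the dotted lines the 2-fold limits. TOP3B lies at the upper 2-fold line and far to the right of the other 8, and 50 rows lie outside the drawn range of the vertical axis.

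The 3 members with the longest coding parts had the highest ratios, but the rest did not follow the order of coding length. NUFIP2, with 2088 coding bases, had a log2 ratio of -0.16, and FMR1, with 1899, had 0.33. Over all protein-coding genes past the floor, the median log2 ratio ran from -0.25 in the quintile with the shortest coding parts (up to 756 bases) through 0.00, 0.15 and 0.30 to 0.52 in the quintile with the longest (2580 bases or more). The 3 members of that last quintile were TOP3B, CYFIP1 and CYFIP2, which are also the 3 with the highest ratios. TOP3B, with 2589 coding bases, lay close to its lower edge. TDRD3, FMR1, FXR1, FXR2 and NUFIP2 lay in the quintile below it, and NUFIP1 in the middle one. By the length of the 3′ untranslated part the medians ran only from 0.21 in the shortest quintile to 0.11 in the longest. CYFIP1, FXR1 and NUFIP2 shared that longest quintile with ratios of 0.87, 0.13 and -0.16.

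Genes are not independent replicates, and the principal transcript need not be the one present, so these medians are a description of the 2 libraries, and the part of coding length in the members' ratios was not tested. Among the 401 coding genes with 1 annotated transcript, leaving out those named as histones, the median ran from -0.54 to -0.04 over quintiles of coding length. With the histones kept the quintiles ran from -0.25 to -0.05 but not in steady order, with -0.41 in the quintile of 414 to 750 bases.

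**Figure D3:**
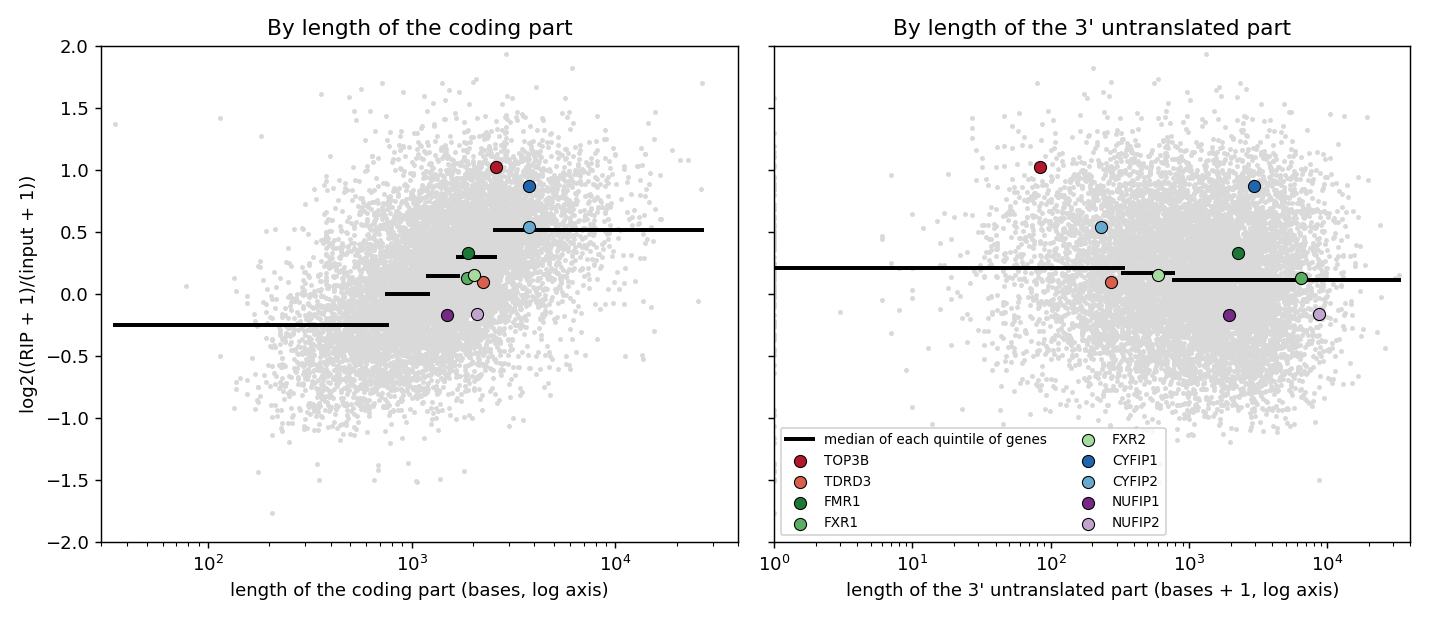
Log2 ratio of RIP to input against the length of the coding part (left) and of the 3′ untranslated part (right) of the principal transcript, on log axes, for protein-coding genes past the floor (grey) and the 9 genes (coloured). Black bars are medians of each quintile of genes. On the left they climb from -0.25 to 0.52 and on the right they stay between 0.11 and 0.21, and 4 genes lie outside the drawn range.

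The place of several members changed once the comparison rows were also required to have a coding part within 1.5-fold in length. This comparison was chosen after the data had been seen. CYFIP2 moved from 71.6% of rows below it to 47.6% of 105 rows, so that it lay near the middle of those rows. CYFIP1 stayed high, at 89.7% of 87 rows. TOP3B stood at 81.5% of 65 rows, which were drawn from rows reaching down to 151 FPKM and so were not of similar level. The rows compared with CYFIP1 had a median log2 ratio of 0.48, and those compared with CYFIP2 0.57.

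The other 6 members lay below most genes like them, as 5 of them already did by level alone. FMR1, the exception, was above 38% of 150 rows, TDRD3 above 33.3% of 183 rows, and FXR2 above 30.6% of 173 rows. FXR1 lay above 23.6% of 161 rows, NUFIP1 above 28.8% of 205 rows, and NUFIP2 above 11.1% of 171 rows. When the 3′ untranslated part was matched in place of the coding part, the shares were within 8 percentage points of those by level alone for every member, with only 15 rows left for NUFIP2 and 22 for FXR1. Matching on the whole transcript gave 19.4% for FXR1 and 17.4% for NUFIP2, the members with the longest transcripts.

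**Figure D4:**
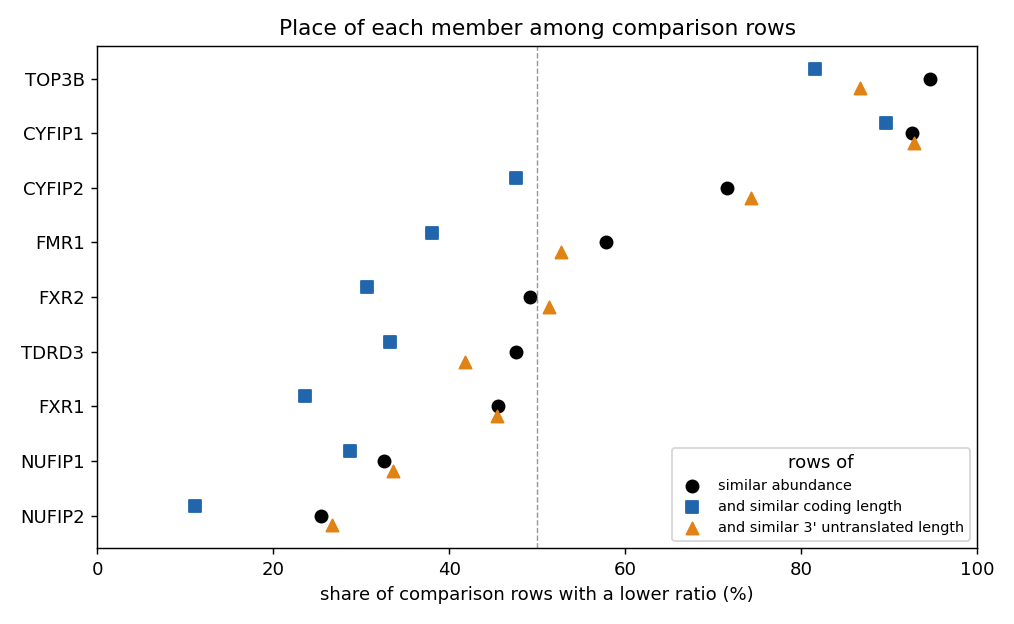
Share of comparison rows with a lower ratio than each gene. Circles are for the 500 rows nearest in level and squares for those of them with a coding part within 1.5-fold in length. Triangles are for those with a 3′ untranslated part within 1.5-fold. For TOP3B the 500 rows reach down to 151 FPKM, so they are not of similar level. Squares lie left of circles for all 9 genes, by the most for CYFIP2, and CYFIP1 and TOP3B stay above 80% throughout.

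The mRNAs of proteins that work with these genes were read from 5 lists. The CYFIP proteins are subunits of the WAVE regulatory complex, whose other subunits and activator gave no ratio as high as that of CYFIP1. Of 10 listed genes 8 were measured, and 0 were at least 2-fold higher or lower, against 4.9% and 2.5% of all rows. The median log2 ratio was -0.08, with 2 of 8 above the median row. ABI2, an adaptor subunit, stood at 43.6 FPKM in the RIP against 31.8 in the input, and ABI1 at 21.4 and 18.1 FPKM. The smallest subunit, BRK1, stood at 27.5 and 46.2 FPKM, a log2 ratio of -0.73, and WASF3 at 5.63 and 6.29 FPKM.

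The list of cytoplasmic mRNP granule proteins, in which FMRP and NUFIP2 are found, had the highest median of the 5. All 24 listed genes were measured, with a median log2 ratio of 0.34 beside 0.13 for all rows, and 17 of 24 lay above the median row. The lists were not matched for coding length, and its part in this median was not tested. Over all coding genes, quintiles 4 and 5 of coding length had medians of 0.30 and 0.52. AGO2, the slicer of RNA interference, was the 1 gene of 24 at least 2-fold higher (4.9% of all rows), at 55.6 FPKM in the RIP against 23.5 in the input. DICER1, which makes the small RNAs that AGO2 loads, stood at 46.5 and 25.6 FPKM. PURB, a single-strand binding protein, was the 1 gene at least 2-fold lower (2.5% of all rows), at 7.02 and 15.4 FPKM, and YBX1, an abundant mRNA packaging protein, stood at 261 and 457 FPKM.

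For the box C/D snoRNP assembly factors that NUFIP1 works with, 11 of 11 were measured, with 1 at least 2-fold higher and 0 lower (4.9% and 2.5% of all rows) and a median of 0.18. NOP56, a core snoRNP protein, stood at 860 FPKM in the RIP against 385 in the input, a log2 ratio of 1.16, and RUVBL2, a helicase-like assembly factor, at 124 and 65.9 FPKM. ZNHIT3, which binds and stabilises the NUFIP1 protein, stood at 39.2 and 53.7 FPKM, and ZNHIT6 at 10.7 and 13.8 FPKM. These were the 2 lowest ratios of the list, at -0.45 and -0.34. Of the 11 genes 6 had ratios above 0, beside 58.7% of all rows.

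Methylarginine writers and Tudor-domain readers, the class to which TDRD3 belongs, had a median of 0.18 over 17 measured genes of 22. Of these 0 were at least 2-fold higher or lower, against 4.9% and 2.5% of all rows. TDRKH, a Tudor protein of mitochondria, stood at 12.6 FPKM in the RIP against 6.63 in the input, and the methyltransferase PRMT7 at 45.7 and 28.2 FPKM. PRMT6 stood at 7.88 and 10.7 FPKM. SMN2 stood at 47.6 and 50.7 FPKM, but it is nearly identical to SMN1 and fragments of both copies can be split between them arbitrarily.

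Cap-binding proteins and enzymes that modify or turn over FMRP and its partners had a median of 0.20 over 20 measured genes of 21. Of these 0 were at least 2-fold higher or lower, against 4.9% and 2.5% of all rows. FZR1, an activator of the anaphase-promoting complex, stood at 19.4 FPKM in the RIP against 10.5 in the input, and EIF4G1, the scaffold of cap-dependent initiation, at 233 and 148 FPKM. EIF4EBP2, the main eIF4E-binding protein of brain, stood at 9.06 and 17.1 FPKM, a log2 ratio of -0.84, and EIF4E3 at 3.44 and 5.47 FPKM. The cap-binding protein EIF4E itself, which CYFIP1 contacts, was named after its value was seen and stood at 53.3 and 73.7 FPKM.

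**Figure D5:**
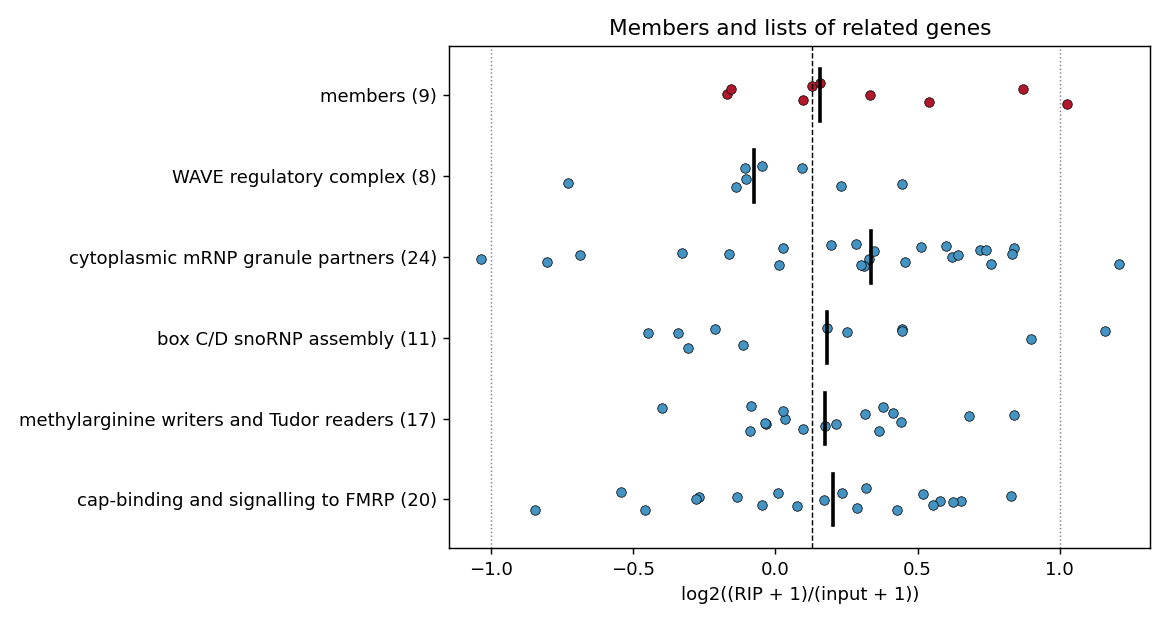
Log2 ratio of RIP to input for the 9 genes (red) and the measured genes of 5 related lists (blue), with the number of genes in brackets. Black bars are list medians, the dashed line is the median of all rows (0.13) and dotted lines are the 2-fold limits. List medians lie between -0.08 for the WAVE complex and 0.34 for granule proteins.

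For 5 other members, the rows most like them over the 2 libraries by distance in log2(FPKM + 1) were TATDN2 for TDRD3, ANP32A for FMR1, ARL6IP4 for FXR1, IQCK for NUFIP1 and YME1L1 for NUFIP2. With only 2 libraries such likeness is weak. Between 14 and 78 rows lay within a distance of 0.1 of each member other than TOP3B, and 0 rows did so for TOP3B.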

How the data were processed

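The authors deposited 1 table with 1 value per gene for the RIP and the input library. Per the submitters' processing notes, cutadapt 1.18, Trimmomatic 0.3, STAR 2.6.1, RSEM 1.2.31 and hg38 were used. The annotation release was not given in the sources used here, nor were the settings and any filter. No unit stands in the table. The deposited values were taken as FPKM, since they have decimals and sum to 1090243 (RIP) and 1512049 (input). FPKM depends on the library's total and on transcript length. Libraries were prepared with a stranded kit, per the labels' protocols.

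Ratios were log2((RIP + 1)/(input + 1)), a scale that understates differences of low genes, with a floor of 5 FPKM in at least 1 library. Each gene was ranked among the 500 rows nearest in mean log2 value. Depth was the fragment number and mean fragment length (168 and 166 bases) at which genes with 1 transcript gave whole fragments. Within 0.15 of a whole number lay 72.4% of 152 genes (RIP) and 66.3% of 285 (input), so depths are estimates. Both scripts were tested on simulated data. GENCODE release 29 gave coordinates, principal transcripts and lengths for 12983 rows (99.3%). Python 3.11.15, numpy 2.4.6, scipy 1.17.1, pandas 2.3.3 and matplotlib 3.10.9 were used.

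From each list up to 2 genes with the highest and 2 with the lowest ratio were named, besides chromosome neighbours and the row nearest in level. The row nearest to FXR2 is not reported here. The members and lists were chosen with earlier results of these data known.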

Additional observations from a re-analysis of the deposited data

How the results depend on the processing

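No paired analysis was possible because neither group had a replicate, and no library could be left out. Count-based scalings (TMM, DESeq2 size factors) need counts and so were not run. TOP3B was the 1 member at least 2-fold higher, but the count was 0 after centring on the median gene (log2 ratio 0.91) and after rescaling to the coding genes without TOP3B (0.89), since both scalings lower all ratios (median of all rows 0.02 and -0.0043, against 0.13). It was 2 at a 1.5-fold limit and 0 at a 4-fold limit. No member was 2-fold lower under any setting run. Of the single ratios of the other 8 members, 47 moved by no more than the distance from the middle of the counting interval to its end, and 15 by more. The 47 include the changed fold limits and floors, which cannot alter a single ratio, so their number is no measure of stability. Under each of the 2 rescalings every one of these members except NUFIP1 moved by more. TDRD3 ranged from -0.03 to 0.10 and FXR1 from -0.01 to 0.13, so their signs depended on scaling. The 6 others kept theirs under the settings run. The deposited values sum to 1090243 in the RIP against 1512049 in the input. Scaling both libraries to equal sums would raise every ratio, but it was not run. The signs of the NUFIP genes and the count of members past 2-fold were therefore not tested under a scaling that raises ratios. Of the window percentiles 60 stayed within a binomial interval and 12 moved. With coding or 3′ untranslated length matched, added after seeing the data, 7 stayed and 11 moved.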
